A study of Mus musculus with 6 samples.

Results

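Interferon regulatory factors (IRFs) and signal transducers and activators of transcription (STATs) were followed in RNA-seq libraries of mouse bone marrow regulatory T cells (Tregs), which hold immune responses in check. The set holds 9 genes out of the 15483 that the tables list, namely Irf1, Irf2, Irf3, Irf5, Irf7, Irf8, Irf9, Stat2 and Stat3, and each was matched by its symbol. There were 3 libraries of irradiated mice, taken 3 months after irradiation, and 3 of control mice, and both groups were wild type. The sources used here do not give the radiation dose, strain, age or sex, or whether animals were pooled. The cells were sorted for CD3, CD4 and Foxp3 and against NK1.1.

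STATs carry a cytokine signal from the receptor to the nucleus, and IRFs bind DNA at repeats of the letters GAAA. After type I interferon binds its receptor, STAT2 and IRF9 act in the complex ISGF3, which binds the interferon-stimulated response element (ISRE) of interferon target genes. Type II interferon (interferon gamma) acts through the gamma-activated site (GAS). Some members of the families are themselves interferon targets, so their transcripts follow interferon signalling, while others are made at all times and are switched on by phosphorylation of the protein. From this background the 9 genes were put into 3 classes. Irf1, Irf7, Irf9 and Stat2 were taken as interferon-induced, and Irf2, Irf3 and Stat3 as constitutive. Irf5 and Irf8, which are used mostly by myeloid, dendritic and B cells, were taken as lineage-restricted. The class names are a working choice, and whether interferon also induces Irf2, Irf5 or Irf8 was not tested.

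The promoters were read from RefSeq on GRCm38.p6, in windows of 250 bases before to 50 after each start, and all 9 genes had at least 1 window. An ISRE core was taken as 2 copies of GAAA with 2 bases of any kind between them, a GAS as TTC and GAA with 3 bases of any kind between them, and both strands were searched, also for the TATA box letters TATAAA. No ISRE core overlapped a GAS in the stretches shown. Of 32851 windows of all genes, 3.44% held the ISRE core, 8.3% the GAS and 13.6% the TATA box letters. Among the 9 genes the ISRE core was found at Stat2 and Irf2, and the GAS at Irf1, Irf2 and Irf8, so matches were present in each of the 3 classes. These stretches are shown because they hold every ISRE core and GAS match of the 9 genes, with the matches in capitals, and Irf7 is added as the gene with the lowest log2 change. The Stat2 stretch (chr10:128270248-128270347, plus strand) holds the ISRE core on the minus strand, and its first base stands 222 bases before the start. The Irf2 stretch (chr8:46739495-46739594, plus strand) holds an ISRE core 241 bases and a GAS 224 bases before the start. The Irf1 stretch (chr11:53769874-53769973, plus strand) holds a GAS 90 bases before the start, and the Irf8 stretch (chr8:120736158-120736257, plus strand) holds a pair of GAS matches 171 and 153 bases before it. The Irf7 stretch (chr7:141266481-141266580, minus strand) holds neither an ISRE core nor a GAS, which says only that these letters are not in this window. The TATA box letters stood 29 bases before the start of Irf7 and 31 bases before that of Irf8.
Stat2: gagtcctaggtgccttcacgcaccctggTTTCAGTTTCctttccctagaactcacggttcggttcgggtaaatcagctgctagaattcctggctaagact
Irf2: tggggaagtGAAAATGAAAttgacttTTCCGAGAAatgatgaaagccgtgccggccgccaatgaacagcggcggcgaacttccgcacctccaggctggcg
Irf1: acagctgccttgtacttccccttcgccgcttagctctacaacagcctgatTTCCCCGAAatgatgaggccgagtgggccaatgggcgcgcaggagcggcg
Irf8: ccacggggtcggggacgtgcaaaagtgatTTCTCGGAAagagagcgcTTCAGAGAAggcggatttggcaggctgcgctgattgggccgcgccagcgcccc
Irf7: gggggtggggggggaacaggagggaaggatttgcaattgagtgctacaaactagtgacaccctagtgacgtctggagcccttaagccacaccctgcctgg

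The unit is FPKM, which counts fragments relative to gene length and library size, so levels can be set side by side between genes. Column totals were 480854 to 485365 FPKM in irradiated libraries and 451444 to 470375 FPKM in control libraries. Read counts were not given, and steps in the lowest values put the depth of irradiated libraries at 81.6% to 92.7% of control replicate 1, and the other control libraries at 98.4% and 102.9%. Each of the 9 genes was above 5 FPKM in every library, so all passed the filter of a mean of at least 1 FPKM. Foxp3, which defines the sorted cells, stood at 11.9 to 13.5 FPKM in irradiated and 21.2 to 24.8 FPKM in control libraries, so the labelled cell type was present. S100a8, a neutrophil gene, stood at 38595 to 39449 FPKM in irradiated and 23847 to 26122 FPKM in control libraries. Summed, 10 granulocyte markers reached 92074 to 94917 FPKM in irradiated and 62853 to 67427 FPKM in control libraries. The sum of 8 Treg markers was 106.8 to 116.1 FPKM in irradiated and 179.7 to 182.0 FPKM in control libraries. Transcripts of these granulocyte markers thus far exceeded those of the Treg markers. Such sums do not give the share of RNA from each cell type, since marker genes differ in level. The levels given here are those of mixed libraries, not of Tregs alone. In such bulk libraries fewer cells of a type and less RNA per cell cannot be told apart.

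Differences were tested with limma on log2(FPKM + 1) across 10666 genes, as irradiated minus control, with Benjamini-Hochberg adjusted p under 0.05 as the call. Of the 9 genes 0 rose and 5 fell, namely Irf7, Irf9, Stat2, Irf5 and Irf8. Over all tested genes 6.29% rose, 10.3% fell and 16.6% were called in either direction. The median log2 change was -0.58 for the 9 genes and -0.02 for all tested genes. Groups did not overlap for 7 of the 9 genes, 6 lower and 1 higher in irradiated libraries, against 33.6% of all tested genes in either direction. By class, 3 of 4 interferon-induced, 2 of 2 lineage-restricted and 0 of 3 constitutive genes fell, and the difference between classes was not tested.

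**Figure D1:**
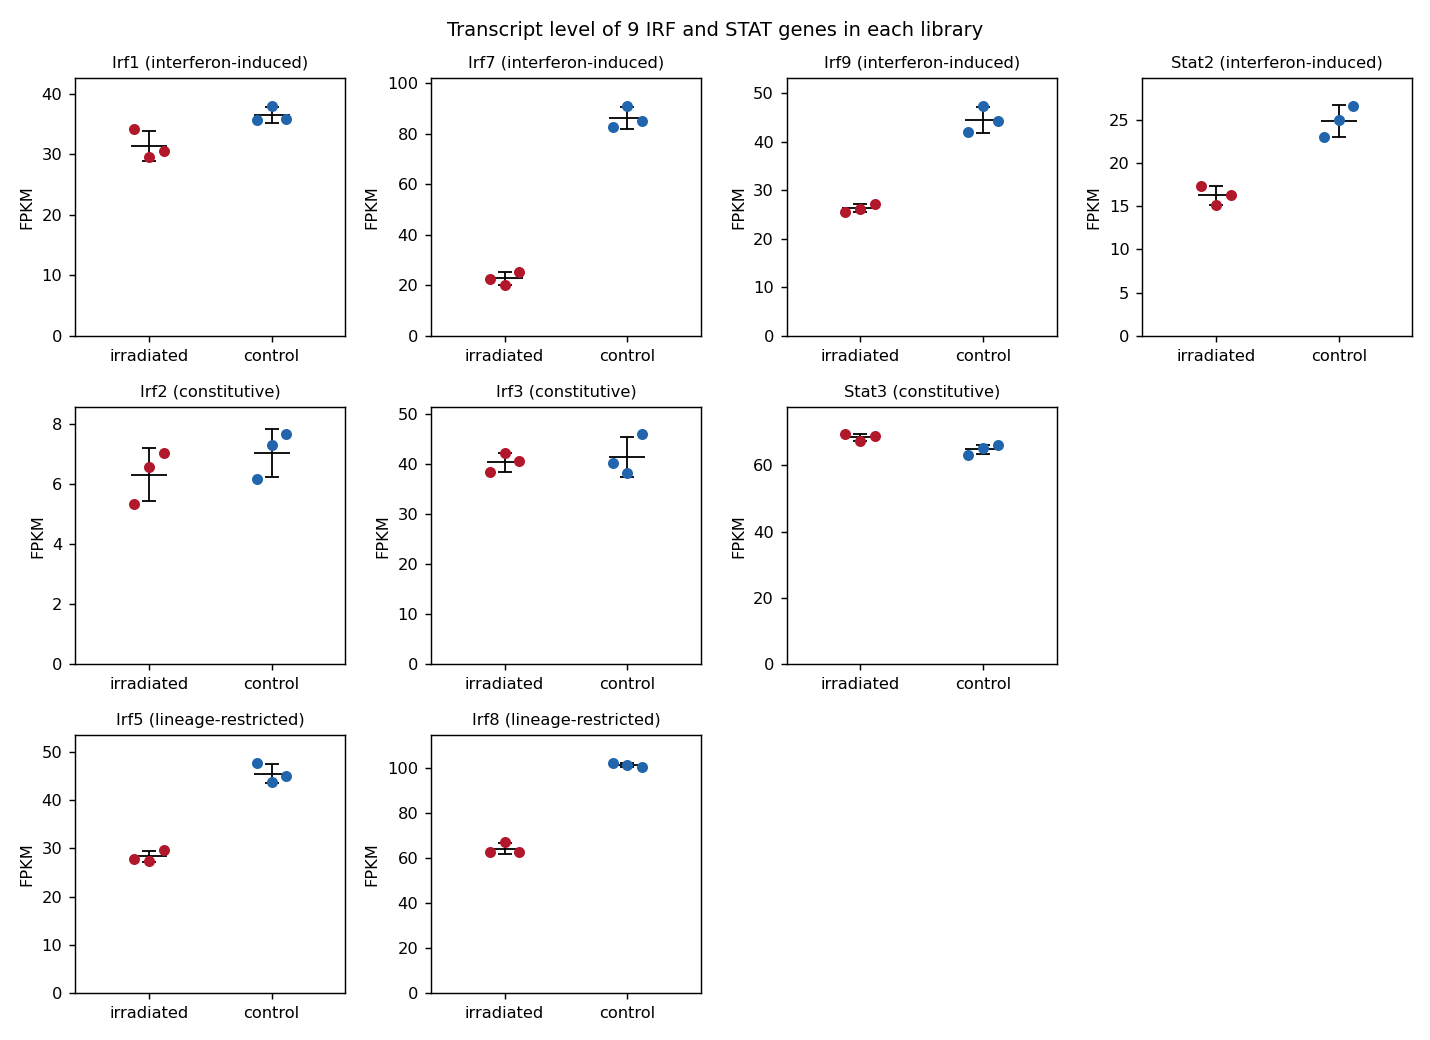
FPKM (y axis, from 0) of the 9 genes in each irradiated and control library, with 1 point per library and the mean ± SD in black (n = 3 each). The groups are farthest apart for Irf7, and they overlap for Irf2 and Irf3.

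The order of levels differed between the groups. In irradiated libraries Stat3 (68.4 FPKM on average) and Irf8 (64.1) stood highest, followed by Irf3 (40.4), Irf1 (31.4), Irf5 (28.3), Irf9 (26.3), Irf7 (22.8), Stat2 (16.3) and Irf2 (6.32). In control libraries Irf8 (101.2 FPKM) and Irf7 (86.2) stood highest, followed by Stat3 (64.8), Irf5 (45.5), Irf9 (44.6), Irf3 (41.5), Irf1 (36.4), Stat2 (24.9) and Irf2 (7.04). Irf7 was thus the seventh of the 9 in irradiated and the second in control libraries. Neighbours whose ranges overlapped were Irf1 and Irf5 in irradiated libraries, and Irf5 with Irf9 and Irf9 with Irf3 in control libraries. Of the summed FPKM of the 7 IRF members, Irf7 made up 10.4% ± 1.06 in irradiated and 23.8% ± 0.884 in control libraries (SD, n = 3). The share of Irf8 was 29.2% ± 1.25 in irradiated and 27.9% ± 0.633 in control libraries.

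Irf7 had the lowest log2 change of the set. It encodes the factor that amplifies type I interferon production and is itself switched on by ISGF3, and it lies on chromosome 7 (141262706 to 141266481, minus strand, GENCODE M21 on GRCm38). Irf7 stood at 22.5, 20.3 and 25.5 FPKM in irradiated libraries, against 82.7, 91.0 and 85.0 FPKM in control libraries. All irradiated values lay far below all control values, and the irradiated mean was 26.4% of the control mean. The log2 change was -1.88 ± 0.08 (SE, limma adjusted p = 1.2e-07), with a 95% interval of -2.06 to -1.70. It ranked 23rd from the lowest change among all 10666 tested genes.

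Both ISGF3 subunits of the set fell, by less than Irf7. Irf9, the DNA-binding subunit (chromosome 14, 55603571 to 55610030), stood at 25.6, 26.2 and 27.3 FPKM in irradiated libraries, against 42.0, 47.4 and 44.3 FPKM in control libraries. The groups did not overlap, and the log2 change was -0.74 ± 0.07 (limma adjusted p = 3.19e-05). Stat2, which carries the activation domain of the complex (chromosome 10, 128270559 to 128292849), stood at 17.3, 15.1 and 16.3 FPKM in irradiated libraries, against 23.0, 25.0 and 26.6 FPKM in control libraries. Its log2 change was -0.58 ± 0.09 (limma adjusted p = 0.000818), again without overlap. The ratio of Irf9 to Stat2 transcripts was 1.48, 1.73 and 1.67 in irradiated libraries and 1.83, 1.90 and 1.67 in control libraries, so the ranges of the ratio overlapped.

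Irf1 differed least among the interferon-induced genes. It encodes an activator that interferon gamma induces, and it lies on chromosome 11 (53770014 to 53778374). Irf1 stood at 34.2, 29.5 and 30.5 FPKM in irradiated libraries, against 35.6, 37.97 and 35.8 FPKM in control libraries. The groups did not overlap, but irradiated replicate 1 came close to the lowest control library. The log2 change was -0.21 ± 0.07 and did not pass (limma adjusted p = 0.0821), with a 95% interval of -0.37 to -0.05. Without irradiated replicate 1 the change was -0.27 and passed (adjusted p = 0.0404), and the adjusted p of the other alternatives, with library scaling to T cell genes set aside, reached 0.241.

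The constitutive genes gave no call. Irf3, the factor that TBK1 phosphorylates after nucleic acid sensing (chromosome 7, 44997648 to 45002848), stood at 38.4, 42.2 and 40.6 FPKM in irradiated libraries, against 40.3, 38.3 and 46.0 FPKM in control libraries. The groups overlapped, and the log2 change was -0.04 ± 0.08 (limma adjusted p = 0.811) with a 95% interval of -0.21 to 0.14. Irf2, which competes with Irf1 for the same DNA letters (chromosome 8, 46739732 to 46847458), stood at 5.34, 6.57 and 7.03 FPKM in irradiated libraries, against 6.16, 7.31 and 7.66 FPKM in control libraries. Its log2 change was -0.14 ± 0.13 (limma adjusted p = 0.531), and its interval of -0.43 to 0.15 is the widest of the 9. Stat3, which serves the receptors of IL-6, IL-10 and G-CSF (chromosome 11, 100885098 to 100939540), stood at 69.3, 67.3 and 68.7 FPKM in irradiated libraries, against 63.2, 65.2 and 66.0 FPKM in control libraries. All irradiated values were above all control values, but the log2 change of 0.08 ± 0.05 did not pass (limma adjusted p = 0.374, 95% interval -0.04 to 0.20).

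Irf5 and Irf8 fell by similar amounts. Irf5, which acts downstream of Toll-like receptors in myeloid and B cells (chromosome 6, 29526625 to 29541871), stood at 27.9, 27.4 and 29.6 FPKM in irradiated libraries, against 47.7, 43.8 and 45.1 FPKM in control libraries. The log2 change was -0.67 ± 0.07 (limma adjusted p = 4.88e-05), without overlap. Irf8, which is required for the development of dendritic cells and monocytes and is used in B cells (chromosome 8, 120736358 to 120756694), stood at 62.7, 67.0 and 62.7 FPKM in irradiated libraries, against 102.2, 101.2 and 100.2 FPKM in control libraries. The log2 change was -0.65 ± 0.05 (limma adjusted p = 1.03e-05), without overlap. The gene model Gm20388, which spans Irf8 on the same strand, was not analysed here, so shared reads cannot be told apart.

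**Figure D2:**
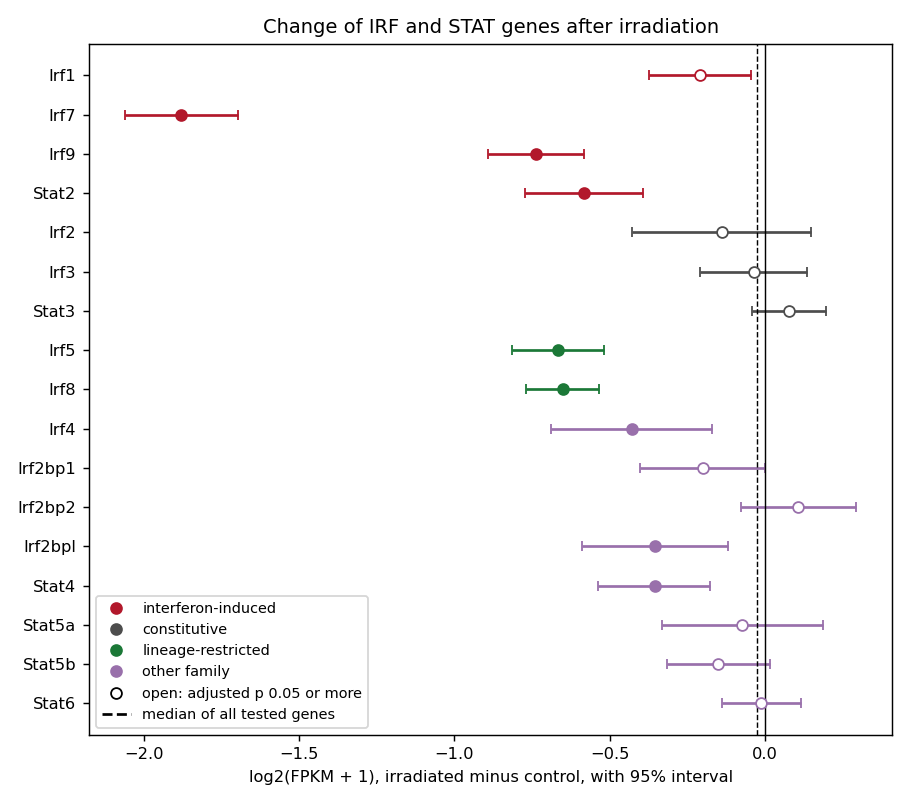
Difference in log2(FPKM + 1), irradiated minus control (x axis), with 95% intervals from limma, for the 9 genes and for other tested IRF, STAT and IRF2-binding protein genes. Filled points passed the adjusted p of 0.05, the dashed line is the median of all tested genes, and Irf7 at -1.88 stands apart from the rest.

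Ratios inside a library do not depend on how libraries are scaled, and 4 such ratios set an interferon-induced factor against a constitutive one. The ratio of Irf7 to Irf3 was 0.586, 0.482 and 0.627 in irradiated libraries, against 2.05, 2.37 and 1.85 in control libraries. Per length, Irf3 thus stood above Irf7 in each irradiated library and below it in each control library. The log2 ratio differed by -1.89 (two-sided exact permutation p = 0.1, the smallest that 3 against 3 allows, and 0.133 adjusted over the 4 ratios). The ratio of Irf9 to Irf3 was 0.665, 0.621 and 0.671 in irradiated libraries, against 1.04, 1.24 and 0.964 in control libraries. Its log2 difference was -0.72 with the same exact permutation p values, as was that of Stat2 to Stat3 at -0.69. Stat2 to Stat3 stood at 0.25, 0.225 and 0.238 in irradiated libraries, against 0.364, 0.383 and 0.403 in control libraries. The ratio of Irf1 to its antagonist Irf2 was 6.41, 4.50 and 4.34 in irradiated libraries, against 5.78, 5.19 and 4.67 in control libraries. These overlapped, and the log2 difference was -0.06 (exact permutation p = 0.8, also after adjustment).

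The mean of the 4 interferon-induced genes minus that of the 3 constitutive genes, on log2(FPKM + 1), was -0.05, -0.29 and -0.18 in irradiated libraries, against 0.66, 0.73 and 0.57 in control libraries. The induced genes stood on average below the constitutive ones in each irradiated library and above them in each control library. The difference between the groups was -0.82, and -0.755 with Irf5 and Irf8 counted as induced. Among the induced genes Irf7 changed by -1.88, against -0.74 for Irf9, -0.58 for Stat2 and -0.21 for Irf1. The difference without Irf7 was not computed. No test is given, since the genes and classes were chosen with results of these data known.

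**Figure D3:**
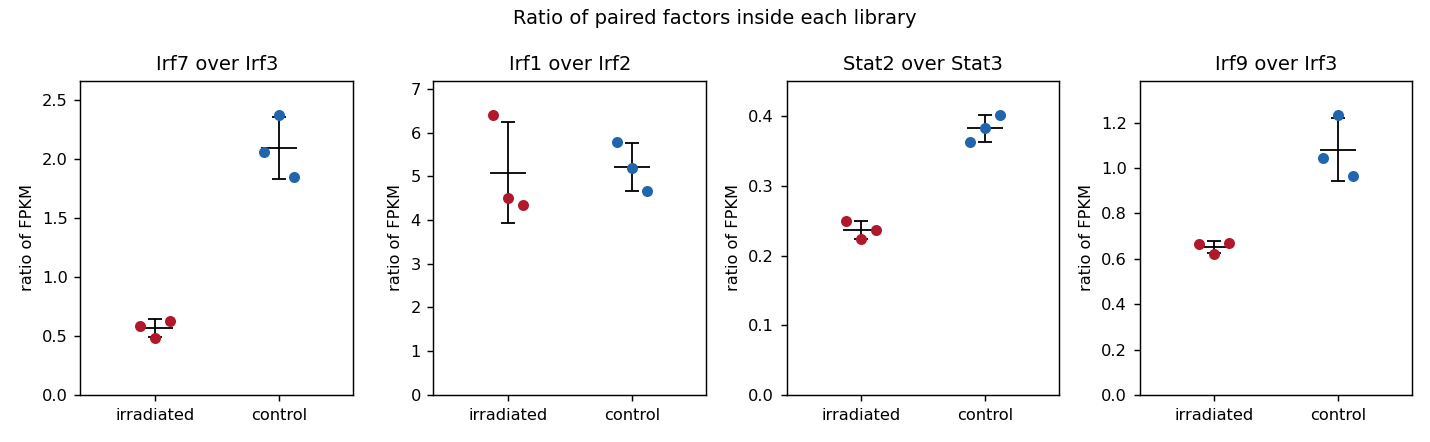
Ratio of FPKM inside each library (y axis, from 0) for Irf7 over Irf3, Irf1 over Irf2, Stat2 over Stat3 and Irf9 over Irf3, with 1 point per irradiated or control library and the mean ± SD in black (n = 3 each). The groups overlap for Irf1 over Irf2 alone among these 4 ratios.

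Among other IRF and STAT genes, 0 of 5 tested rose and 2 fell, against 6.29% and 10.3% of all tested genes. The count that fell was smaller under 8 of 14 alternatives. Stat4, which serves the IL-12 receptor, changed by -0.36 ± 0.08 (limma adjusted p = 0.0123), and Irf4, a factor of effector Tregs and plasma cells, by -0.43 ± 0.12 (limma adjusted p = 0.03). Irf4 no longer passed without control replicate 1 or 2 or irradiated replicate 1 or 2 (adjusted p up to 0.112), nor with a replicate block, quantile normalization or no filter, nor Stat4 without control replicate 1 (0.059). Stat5a, Stat5b and Stat6 had log2 changes of -0.07, -0.15 and -0.01 and did not pass. Of the IRF2-binding proteins, Irf2bpl changed by -0.35 ± 0.11 (limma adjusted p = 0.0441), which passed in 1 of the 6 fits with a library left out, that without control replicate 3. It also did not pass with a replicate block, median-of-ratios scaling, quantile normalization or no filter. Irf2bp1 (-0.20) and Irf2bp2 (0.11) did not pass. On a scale set to T cell genes, where 8844 genes rose and the median was 0.60, Irf2bpl was called higher (0.26, limma adjusted p = 0.0423). So were Irf2bp1 (0.46), Irf2bp2 (0.78), Stat5a (0.57), Stat5b (0.51) and Stat6 (0.67) on that scale.

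Of 33 tested type I interferon targets 0 rose and 32 fell, against 6.29% and 10.3% of all tested genes. Their median log2 change was -1.23, against -0.02 over all tested genes. Samd9l at -0.10, chosen after its value was seen, was the gene that did not pass. The targets with the lowest p were Ifi27l2a (-2.19), Slfn5 (-1.66) and Lgals3bp (-1.28). Summed over that list, the level was 467.9 to 489.8 FPKM in irradiated and 1156 to 1170 FPKM in control libraries. Of 22 type II interferon targets 0 rose and 15 fell, with a median of -0.60, among them the immunity GTPase genes Ifi47 (-0.71), Irgm1 (-1.01) and Igtp (-0.92). These lists were drawn up with results of these data known. The pathway lists share genes, among them Usp18 and Ifih1 of the type I list, so their counts are not independent.

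Of 8 interferon receptor and kinase genes 0 rose and 1 fell, and the list median was -0.12. That count is near the share over all tested genes, of which 6.29% rose and 10.3% fell. The gene that fell was Il10rb, a chain shared by the receptors of IL-10 and interferon lambda, at -0.33 ± 0.07 (limma adjusted p = 0.00852). Ifnar2, a chain of the type I interferon receptor, changed by -0.22 ± 0.08 (limma adjusted p = 0.0769) and the kinase gene Jak1 by -0.11 ± 0.05 (0.207), and neither passed. Of 18 tested sensors and adaptors upstream of Irf3 and Irf7, 2 rose and 8 fell, with a median of -0.17. Tlr9, the endosomal DNA sensor of plasmacytoid dendritic cells and B cells, stood at 2.24, 3.91 and 3.51 FPKM in irradiated libraries, against 10.6, 11.04 and 9.47 FPKM in control libraries (log2 change -1.45 ± 0.16, limma adjusted p = 8.64e-05). The RNA sensors Tlr7 and Ifih1 changed by -0.94 ± 0.12 and -0.85 ± 0.11. The members of that list that rose, chosen after their values were seen, were the adaptor gene Myd88 (0.29) and the kinase gene Tbk1 (0.37).

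Of 14 tested negative regulators 1 rose and 1 fell, with a median of -0.06. Over all tested genes 6.29% rose and 10.3% fell, so these counts are near that share. The count that fell was 2 without control replicate 1 or irradiated replicate 3 and with a minimum mean of 5 FPKM, and the count that rose was 2 without control replicate 3. Usp18, an interferon target that blocks the type I receptor, changed by -2.22 ± 0.13 (limma adjusted p = 8.4e-07). Socs3, which Stat3 induces and which restrains it, rose, at 20.5, 18.7 and 17.7 FPKM in irradiated libraries, against 10.6, 13.6 and 13.1 FPKM in control libraries (log2 change 0.58 ± 0.11, limma adjusted p = 0.00362). Tnfaip3, a brake on NF-kB, changed by -0.40 ± 0.13 and did not pass (limma adjusted p = 0.0541). Of 12 Stat3 targets 5 rose and 1 fell, with a median of 0.09. Il1r2, a decoy receptor that neutrophils carry, rose by 0.56 ± 0.11, and Batf, a factor of effector T cells, changed by -0.55 ± 0.09. Without control replicate 2 the count that rose was 3. Of 6 tested Stat3 receptor genes 0 rose and 3 fell, Il10ra (-0.66), Il6ra (-0.45) and Il21r (-0.57), and without control replicate 3 or with median-of-ratios scaling 1 rose. Granulocyte markers rose in the same libraries, and their part in the Socs3 and Il1r2 values was not tested.

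Most tested markers of cells that use Irf5, Irf7 and Irf8 were lower in the libraries in which those genes fell. Most tested T cell, Treg and natural killer cell markers, given below, were lower there as well. Of all tested genes, 6.29% rose and 10.3% fell. Of 10 tested plasmacytoid dendritic cell markers 0 rose and 6 fell, and their summed level was 32.5 to 38.2 FPKM in irradiated and 63.2 to 69.8 FPKM in control libraries. Siglech, a surface marker of these cells, stood at 3.55, 2.50 and 3.29 FPKM in irradiated libraries, against 15.6, 14.2 and 14.5 FPKM in control libraries (log2 change -1.95 ± 0.13, limma adjusted p = 1.67e-06). In irradiated libraries the highest of that list were Lair1, Runx2 and Smim5, at 10.0, 8.10 and 6.33 FPKM on average. In control libraries they stood at 11.9, 9.91 and 5.73 FPKM. Their log2 changes of -0.23, -0.26 and 0.12 did not pass. Of 8 tested conventional dendritic cell markers 0 rose and 6 fell (234.9 to 247.0 against 459.1 to 493.8 FPKM, irradiated against control), with Flt3 at -0.57. Most of that sum is Cd74 (149.2 FPKM in irradiated and 301.0 FPKM in control libraries on average) and H2-Ab1 (64.7 FPKM in irradiated and 135.3 FPKM in control libraries), which B cells and macrophages also transcribe. Of 10 monocyte and macrophage markers 0 rose and 9 fell (1419 to 1481 against 2078 to 2244 FPKM, irradiated against control), with Csf1r at -0.75. Most of that sum is the monocyte gene Ly6c2 (1062 FPKM in irradiated and 1320 FPKM in control libraries on average), which changed by -0.31. The monocyte gene Ccr2 (-0.03) did not pass, while the macrophage genes C1qa, C1qb and C1qc changed by -1.83, -1.76 and -1.91. Of 9 tested B cell markers 0 rose and 9 fell (40.01 to 46.8 against 112.8 to 119.0 FPKM, irradiated against control), with Cd79a at -0.99. No gene of these lists was at 0 in all libraries. The part of these cells in the changes of Irf5, Irf7, Irf8 and Tlr9 was not tested.

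The T cell genes of the same libraries were lower too. Of 9 tested T cell core markers 0 rose and 8 fell (248.9 to 260.1 against 421.3 to 436.8 FPKM, irradiated against control), with Cd3e at -0.64. Of 8 Treg markers 0 rose and 6 fell (106.8 to 116.1 against 179.7 to 182.0 FPKM, irradiated against control), with Foxp3 at -0.80. Of 6 natural killer cell markers 0 rose and 6 fell (26.4 to 27.6 against 57.2 to 67.3 FPKM, irradiated against control), with Klrb1c at -0.84. Of 10 granulocyte markers 8 rose and 0 fell (92074 to 94917 against 62853 to 67427 FPKM, irradiated against control), with S100a8 at 0.63. The median log2 changes of these 4 lists were -0.68, -0.61, -0.93 and 0.33, against -0.02 over all tested genes. Of all tested genes, 6.29% rose and 10.3% fell.

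**Figure D4:**
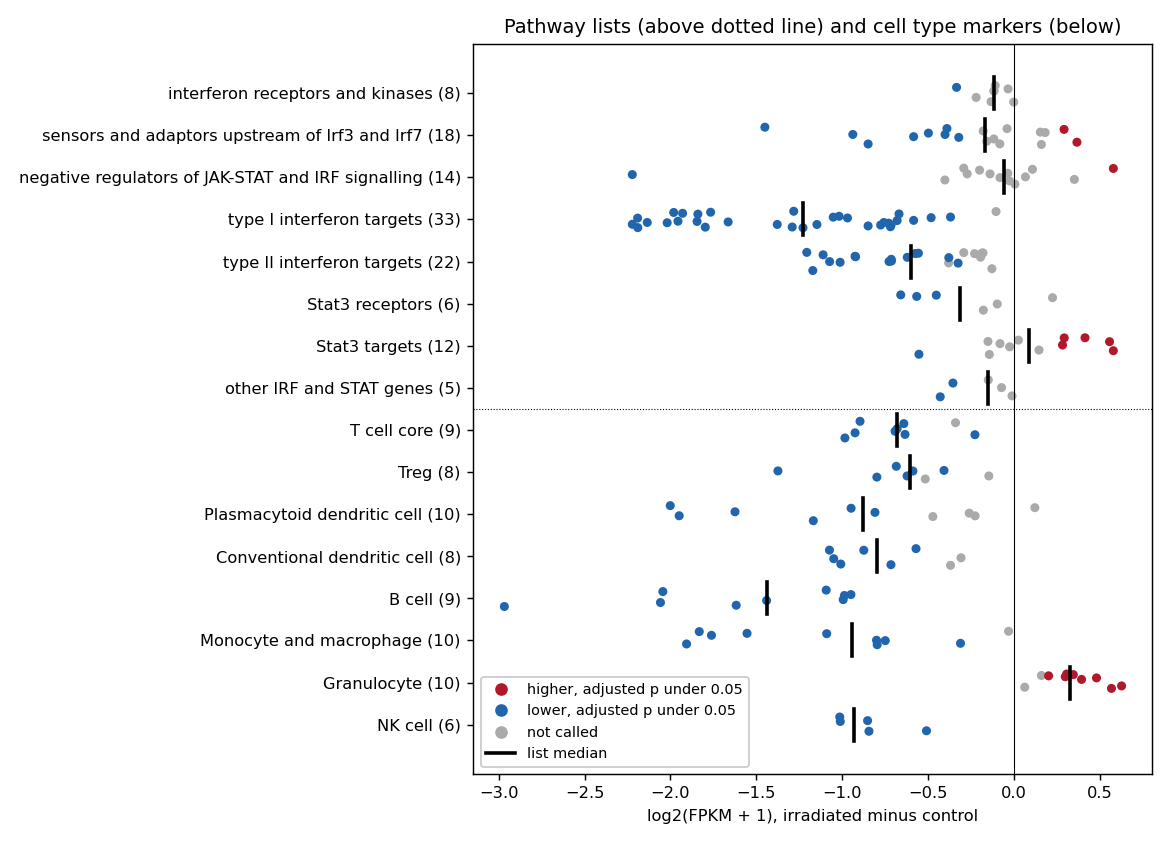
Difference in log2(FPKM + 1), irradiated minus control (x axis), of each tested gene in the pathway lists and the cell type marker lists, with the number tested in brackets and the list median as a black bar. Type I interferon targets centre on -1.23, while receptors and kinases centre on -0.12 and granulocyte markers on 0.33.

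As 8 of the 9 T cell core genes fell, the libraries were also scaled to these genes, by their geometric mean in each library. This shifts the median of all tested genes to 0.60, and 8844 genes rose and 224 fell on it, against 671 and 1100 on the deposited scale. Irf7 was the only one of the 9 genes that fell on this scale, at -1.21 ± 0.09 (limma adjusted p = 8.27e-07). Irf9 (-0.07), Stat2 (0.07), Irf5 (0.01) and Irf8 (0.03) lay near 0 there, below the median of all genes, and did not pass, at adjusted p from 0.392 to 0.940. Irf1 (0.46), Irf2 (0.46), Irf3 (0.64) and Stat3 (0.76) rose on this scale, Irf3 and Stat3 to above the median of all genes and Irf1 and Irf2 to below it. Stat4 rose on it (0.30), and Irf4 did not pass (0.16). Of the type I interferon targets 2 rose and 21 fell on this scale (median -0.60), and of the type II targets 7 rose and 7 fell (median 0.02). Receptors and kinases had a median of 0.55 and sensors and adaptors one of 0.45 on it. Stat2, Irf5, Irf8, Irf1, Irf2 and Irf3 thus had a negative value on the deposited scale and a positive one here, where most genes are positive. Under the other scalings, median-of-ratios and quantile normalization, the 5 genes that fell kept their calls.

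**Figure D5:**
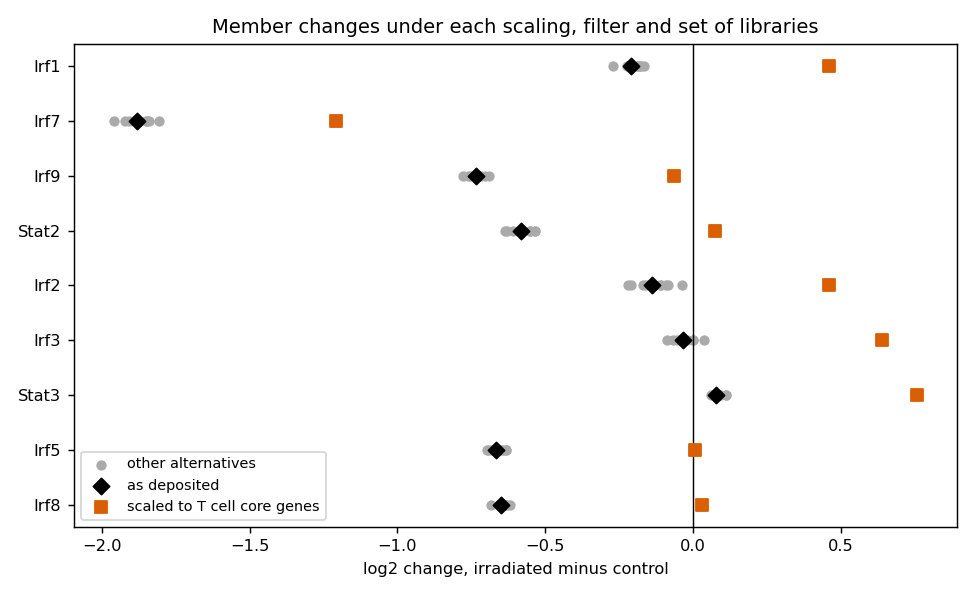
Log2 change, irradiated minus control (x axis), of the 9 genes as deposited (black diamonds), after scaling to T cell core genes (orange squares) and under 13 other alternatives (grey). Irf7 lies below 0 in all of them, and the squares of Irf9, Stat2, Irf5 and Irf8 lie between -0.07 and 0.07.

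Other genes followed Irf7 and Irf8 closely across the 6 libraries. The measure was the root mean square distance between log2(FPKM + 1) profiles, each centred on its own mean, among 7891 genes that averaged 5 FPKM or more. Nearest to Irf7 were Sdc3 (distance 0.0781), Rsad2 (0.114), Siglech (0.117), Rtp4 (0.118) and C1qa (0.120). Rsad2, which encodes the antiviral enzyme viperin, and Rtp4 are interferon targets, while Siglech marks plasmacytoid dendritic cells and C1qa macrophages. Nearest to Irf8 were Slc40a1 (0.0287), Psap (0.033), Il2rb (0.0388), Ccl5 (0.0411) and Ly6e (0.042). Slc40a1 encodes the iron exporter ferroportin and Psap the precursor of lysosomal saposins, while Il2rb, a chain of the IL-2 receptor, and the chemokine gene Ccl5 are transcribed in T and natural killer cells. These distances mostly describe the difference between the groups and share the same libraries.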

How the data were processed

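RNA-seq was made from sorted bone marrow Tregs with a low-input RNA kit and a stranded mRNA library kit, per the labels' protocols. The submitters' processing notes name fastp, HISAT2 and StringTie and the builds GRCm38 and mm10, but the sources used here give no versions, settings, annotation release or strand setting of the counting. Per library the authors deposited 1 table, whose values were read as FPKM. The file headers do not name the unit, but column totals differ while value times exonic length (GENCODE M21) sums to 1461497 to 1472668 in each library. All 9 genes but Stat2 share bases with another gene model, Irf8 and Irf9 on the same strand, so their values can hold reads of it.

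Groups follow the sample titles. Whether replicates are separate animals is not stated, and p-values measure only the spread between libraries, which may be technical. Testing used limma 3.58.1 under R 4.3.3 on log2(FPKM + 1) of genes averaging 1 FPKM or more (eBayes with a trend, two-sided, Benjamini-Hochberg over 10666 genes). The fold change understates that of low genes. Ratios were tested with an exact permutation test in scipy 1.17.1. Relative depth was taken from genes below 0.1 FPKM, as the factor that made the most pairs of values match fractions of whole numbers up to 6, within a tolerance of 0.001 (128 to 209 of 225 to 341 genes per library). The limma fit was tested on simulated data, and the depth estimate was not.

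The genes, classes, lists and tests were chosen with earlier results of these data known. Named genes were the 9 members, other IRF, STAT and IRF2-binding protein genes, and the 3 genes with the lowest p of each pathway list. Also named were the first marker of each cell type list and the 5 nearest profiles of Irf7 and Irf8. Samd9l, Myd88, Tbk1, Lair1, Runx2, Smim5, Cd74, H2-Ab1, Ly6c2, Ccr2, C1qb and C1qc were chosen after their values were seen. Sting1 and Cgas were matched under their current symbols, and Mx1, Mx2 and Trac were not analysed here. The alternatives changed the pseudocount (0.1) or the filter (none, or 5 FPKM), or used median-of-ratios scaling, quantile normalization, scaling to T cell core genes, no trend, a replicate block, leaving out each library and, for the class means, Irf5 and Irf8 counted as induced. Some genes of both families are not reported here, and no protein sequences were used.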

Additional observations from a re-analysis of the deposited data

How the results depend on the processing

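The falls of Irf7, Irf9, Stat2, Irf5 and Irf8 kept their direction and call under 13 of 14 alternatives, the exception being the T cell core scale, on which Irf7 also kept its call. Without that scale their log2 changes ran from -1.96 to -1.81 for Irf7, -0.78 to -0.69 for Irf9, -0.64 to -0.54 for Stat2, -0.70 to -0.63 for Irf5 and -0.68 to -0.62 for Irf8. On the T cell core scale 8844 of all tested genes rose and 224 fell, and 4 of the 9 genes rose and 1 fell. The changes there were 0.461 for Irf1, -0.066 for Irf9, 0.074 for Stat2, 0.46 for Irf2, 0.638 for Irf3, 0.758 for Stat3, 0.006 for Irf5 and 0.031 for Irf8, and the scaling itself moves every gene upward.

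Leaving out 1 library gave 414 to 684 genes that rose and 722 to 978 that fell, lowest in both cases without control replicate 2, and 5 or 6 of the 9 genes fell. In these fits Irf1 ran from -0.27 to -0.167 and Irf3 from -0.09 to 0.038, positive without control replicate 3. The log2 difference of Irf1 over Irf2 ran from -0.234 to 0.047, so it has no stable direction. Same-numbered replicates did not deviate together (correlations 0.01, -0.04 and -0.02 across genes), so the numbers were not taken as pairs. With a replicate block 558 genes rose and 948 fell, and 5 of the 9 genes fell. The absolute depth is unknown, so no counting interval can be given, and Irf2, the lowest of the 9, has the widest interval.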
